A study of Homo sapiens with 12 samples.

Results

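The SOXF transcription factors SOX7, SOX17 and SOX18, together with the Notch ligands DLL4 and JAG1, the receptors NOTCH1 and NOTCH4, and the target genes HEY1, HEY2 and HES1, were followed through blood formation from human embryonic stem cells (hESCs) with and without GATA2. The rule for choosing them was the gene symbol alone. The 10 symbols matched 11 of the 56266 gene entries listed for each library. Each of the 11 passed the filter for testing, which kept 21543 entries with a TPM (a share of all transcripts, scaled by their length) of at least 1 in at least 2 libraries. The 11th entry, with the identifier ENSG00000258724, carries the symbol SOX7 a second time and is described with SOX7.

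The study asked what loss of GATA2, a zinc finger transcription factor of blood stem cells, does to human hematopoietic differentiation. RNA-Seq of 10 libraries in 5 groups of 2 was used here. All came from the H1 hESC line, either wild type (WT) or carrying a homozygous disruption of GATA2 (GATA2-/-), in which TALEN cutting placed a PGK-neo cassette into exon 3. The GATA2-/- line is 1 clone, so that effects of the clone and of the gene cannot be told apart, and the 2 WT hESC samples are not analysed here. Hemogenic endothelium (HE) was sorted as CD34+CD31+CD43- cells on day 8 of co-culture with OP9, a mouse bone marrow stromal line, from WT and from GATA2-/- cells. Hematopoietic progenitor cells (HPCs) were sorted as CD34+CD43+ cells on day 9, also from both genotypes, and the fifth group was undifferentiated GATA2-/- hESCs. HE and HPC thus differ in stage, day of co-culture and sorting markers together, which cannot be told apart. Nothing in the labels says that the paired libraries of a group came from separate differentiations, so the p-values measure only the spread between these libraries, which may be technical.

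In the embryo, blood stem cells bud from endothelium of arteries. The SOXF factors are HMG-box proteins of endothelium that act upstream of the arterial Notch ligand DLL4 and of other Notch genes, and SOX17 is also a factor of definitive endoderm. In the Notch pathway a ligand on one cell binds a receptor on the next, the receptor is cut by ADAM proteases and by gamma-secretase, and its intracellular part joins RBPJ and MAML proteins on DNA to switch on repressors of the HES and HEY families. Notch input is needed for arterial fate and for the first blood stem cells, and SOX17 is known as a factor that holds hemogenic cells in the endothelial state.

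GATA2 itself was measured in every library first. Its level was 2.05 and 5.54 TPM in the GATA2-/- hESC libraries, 107 and 78.0 in WT HE, 111 and 94.1 in GATA2-/- HE, 290.1 and 204 in WT HPC, and 112 and 83.8 in GATA2-/- HPC. The genotypes overlapped in HE, with a log2 difference (GATA2-/- minus WT) of 0.16 ± 0.36 (SE), and in HPCs both GATA2-/- libraries lay below both WT libraries, by 1.32 ± 0.36 on the log2 scale (adjusted p = 0.296, limma). TPM is summed over the whole gene, and how much of the counted sequence lies before or after the cassette was not tested, so this level is no check of the genotype labels in HE. To identify the mutation in transcripts, the study used primers placed between the TALEN cut sides. SPI1, a myeloid factor that the study followed up from these libraries and thus no independent check, was at 35.8 and 22.2 TPM in WT HE and 6.87 and 2.41 in GATA2-/- HE (log2 difference -2.50, adjusted p = 0.25 in limma), and both GATA2-/- libraries were the lower, as for 16.5% of all entries. The groups are named below as labelled.

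The libraries were close in total, at 998299 to 999106 TPM over all entries and 16004 to 17335 entries at 1 TPM or more, and their sequencing depth is unknown because no counts were used. The sorted stages showed their defining genes. CDH5, the endothelial cadherin, reached 514 to 614 TPM in HE and 53.9 to 137 in HPC, and KDR, a VEGF receptor, 759 to 879 in HE and 83.9 to 209 in HPC. SPN, which encodes CD43, was at 1.76 to 8.81 in HE and 98.0 to 108 in HPC, and RUNX1, the factor of the endothelial to blood transition, at 19.4 to 77.9 in HE and 198 to 361 in HPC. PTPRC, the leukocyte marker CD45, was listed at 0 in all HE libraries and at 0.68 to 3.09 in HPC. POU5F1, the pluripotency factor, was at 2855 to 3332 TPM in hESCs and at 3.02 or less in the sorted cells. In the column headers the second HE and HPC libraries of both genotypes end in the same 4 digits, whose meaning is not stated, and those of the hESC libraries carry P38 and P58.

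Promoter sequence is shown for 3 genes because of how they moved: DLL4 fell from HE to HPC in both genotypes, whereas the Notch targets HES1 and HEY2 did not pass the test. Each line gives the 250 bases before the RefSeq transcription start in the GRCh38.p14 assembly, 5′ to 3′ on the gene's strand, with capitals for the letters TGGGAA or their reverse complement, the core of the sequence that RBPJ binds. The windows are chr3:194135898-194136147 for HES1, chr6:125749382-125749631 for HEY2 and chr15:40929090-40929339 for DLL4, each on the plus strand.
HES1: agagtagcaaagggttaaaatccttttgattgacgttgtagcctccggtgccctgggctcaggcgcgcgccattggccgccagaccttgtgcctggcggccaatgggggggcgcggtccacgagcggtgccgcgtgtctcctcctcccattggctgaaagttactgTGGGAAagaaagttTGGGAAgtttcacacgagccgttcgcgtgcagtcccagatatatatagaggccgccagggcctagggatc
HEY2: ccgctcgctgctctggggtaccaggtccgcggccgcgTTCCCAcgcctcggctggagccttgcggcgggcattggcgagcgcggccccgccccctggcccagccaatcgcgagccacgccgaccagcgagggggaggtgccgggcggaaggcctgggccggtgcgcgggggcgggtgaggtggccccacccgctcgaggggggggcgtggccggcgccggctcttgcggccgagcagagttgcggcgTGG
DLL4: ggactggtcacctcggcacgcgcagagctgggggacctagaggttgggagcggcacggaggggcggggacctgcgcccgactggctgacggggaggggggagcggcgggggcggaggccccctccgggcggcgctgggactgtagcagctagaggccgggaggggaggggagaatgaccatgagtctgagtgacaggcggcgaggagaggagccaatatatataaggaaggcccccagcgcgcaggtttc
HES1 held the RBPJ letters in a pair, both on the gene's strand, at positions -84 to -79 and -70 to -65, counted from the start. HEY2 held them on the opposite strand at positions -213 to -208 and again across the start itself, so that the last 3 capitals begin a match that ends 3 bases into the transcript. DLL4 held none, and neither did NOTCH1, NOTCH4 or JAG1. Promoters were examined for these 6 of the 10 genes. Those of SOX7, SOX17, SOX18 and HEY1 were not examined, so whether they hold these letters was not tested. The contrast of HES1 and HEY2 with DLL4 therefore lacks HEY1, the Notch target that fell with DLL4. The 3 genes shown were picked by how they moved, and a link of these letters to that movement was not tested. Over windows of 300 bases, from 250 before to 50 after the start, 24.0% of 35116 promoters hold these letters on either strand. The SOX core ACAAT, present in 27.4% of the windows, was found in NOTCH4 at positions -24 to -20 on the opposite strand, and a GATA core (AGATAA or TGATAA, in 16.3%) in HES1 at 23 to 28 bases after the start. Such matches are letters in a sequence and no evidence of binding.

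The 3 SOXF genes were high in HE and low elsewhere. SOX7 was at 0.79 and 0.32 TPM in the GATA2-/- hESC libraries, 142 and 109 in WT HE, 158 and 120.1 in GATA2-/- HE, 14.1 and 2.88 in WT HPC and 24.4 and 15.4 in GATA2-/- HPC. The HE libraries of the genotypes overlapped, no HPC library came near them, and both GATA2-/- HPC libraries were above both WT HPC libraries. SOX7 made up 57.0 to 67.7% of the summed SOXF level in the HE libraries, where TPM, being scaled by transcript length, allows genes to be compared.

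SOX17 was listed at 0 in both hESC libraries, at 27.1 and 23.6 TPM in WT HE, at 38.3 and 31.7 in GATA2-/- HE, at 0.51 and 0.16 in WT HPC and at 0 and 1.19 in GATA2-/- HPC. It was low in HPCs, at 0 to 3.40% of the mean HE level of the same genotype. The genotypes did not overlap in HE, with GATA2-/- the higher. FOXA2, FOXA1, HNF4A, GSC and EOMES, which mark the endoderm that also makes SOX17, were at 0 to 1.15 TPM in all 10 libraries and too low to test. The other 3 of the 8 endoderm markers were AFP at 0.64 to 13.2 TPM, TTR at 0 to 12.9 and CER1 at 0 to 7.45. Of these 3, TTR was called higher in GATA2-/- HPCs than in hESCs (2.64) and 1 was called lower. From hESC to HE, 0 of the 3 were called higher and 2 were called lower. Summed, the 8 were at 16.2 to 17.9 TPM in hESCs, where SOX17 was listed at 0, at 3.62 to 11.4 in HE, and at 4.84 and 25.2 in the GATA2-/- HPC libraries with SOX17 at 0 and 1.19, and their part in the SOX17 level was not tested.

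SOX18 was also listed at 0 in both hESC libraries. It reached 40.9 and 39.5 TPM in WT HE, 74.2 and 59.0 in GATA2-/- HE, 11.4 and 5.79 in WT HPC and 11.3 and 7.14 in GATA2-/- HPC. Here too the HE libraries of the genotypes did not overlap, with the GATA2-/- libraries the higher, and the HPC libraries did overlap.

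The second entry under the symbol SOX7 is named PINX1 in the GENCODE annotation and is a readthrough transcript. It shares 1268 exonic bases with SOX7, which is 39.4% of the exonic bases of SOX7 and 72.3% of its own. A further 485 bases, 27.7% of its own, are shared with another entry named PINX1, which reached 45.8 TPM. The second SOX7 entry was at 0 in the hESC libraries, 3.47 and 2.71 TPM in WT HE, 0.88 and 0 in GATA2-/- HE, 2.07 and 0 in WT HPC and 0 and 0.33 in GATA2-/- HPC. How reads were divided between the overlapping entries cannot be read from TPM. To that extent the level of SOX7 is uncertain, and so are the level and the differences of this second entry. Its highest value, 3.47 TPM, stood beside 142 of SOX7 in the same library. The log2 difference of this entry, GATA2-/- minus WT, was -1.57 ± 0.55 in HE (unadjusted p = 0.0199 and adjusted p = 0.918 in limma). In HPC it was -0.60 ± 0.55, and the entry was not called in any comparison.

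All 10 genes are protein coding. In the GRCh37 assembly, SOX7 lies on chromosome 8 at 10581278 to 10588021 (minus strand), SOX17 on chromosome 8 at 55370495 to 55373452 (plus strand) and SOX18 on chromosome 20 at 62678935 to 62680992 (minus strand). DLL4 lies on chromosome 15 at 41221538 to 41231271 (plus strand) and JAG1 on chromosome 20 at 10618332 to 10654647 (minus strand). NOTCH1 lies on chromosome 9 at 139388885 to 139440500 (minus strand) and NOTCH4 on chromosome 6 at 32162620 to 32191844 (minus strand). HEY1 lies on chromosome 8 at 80674606 to 80680092 (minus strand), HEY2 on chromosome 6 at 126068810 to 126082415 (plus strand) and HES1 on chromosome 3 at 193853937 to 193856521 (plus strand). NOTCH4 shares 98 exonic bases, 1.01% of its own, with GPSM3 on the same strand, and JAG1 shares 306 exonic bases, 3.29%, with a long noncoding RNA on the opposite strand. The libraries do not mark strand, so reads in such stretches cannot be told apart.

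**Figure D1:**
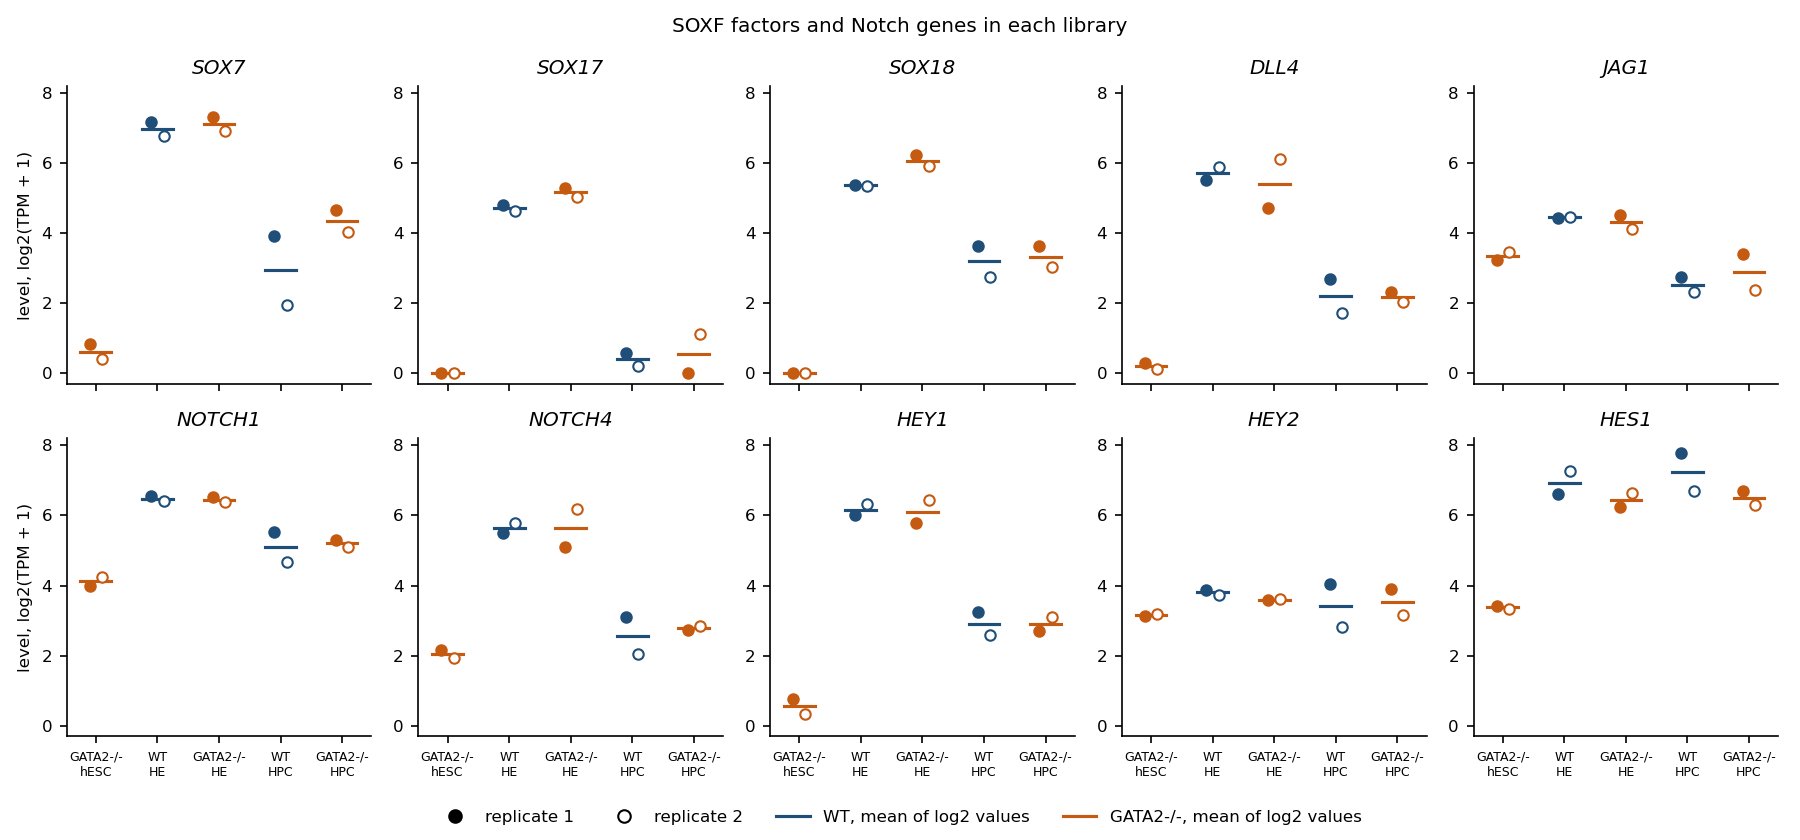
Level of each of the 10 genes in each library, as log2(TPM + 1) on the y axis, for the 5 groups on the x axis; filled points are replicate 1, open points replicate 2, and lines the mean of the log2 values. SOX7, SOX17, SOX18, DLL4, NOTCH4 and HEY1 peak in both HE groups, NOTCH1 and JAG1 do so over a narrower range, and HES1 overlaps between HPC and HE.

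The ligands differed in range. DLL4, the ligand of arterial endothelium, was at 0.22 and 0.10 TPM in hESCs, 44.8 and 58.5 in WT HE, 25.2 and 68.5 in GATA2-/- HE, 5.44 and 2.29 in WT HPC and 4.04 and 3.09 in GATA2-/- HPC. The 2 GATA2-/- HE libraries enclosed both WT values, and no HPC library reached the lowest HE library. JAG1 was at 8.46 and 9.97 in hESCs, 20.7 and 21.2 in WT HE, 22.0 and 16.5 in GATA2-/- HE, 5.76 and 3.98 in WT HPC and 9.63 and 4.26 in GATA2-/- HPC. JAG1 was thus already present in hESCs, below both HE groups and overlapping the range of GATA2-/- HPC.

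Among the receptors, NOTCH1 was present at every stage. It was at 14.97 and 17.9 TPM in hESCs, 92.3 and 83.4 in WT HE, 90.7 and 82.6 in GATA2-/- HE, 45.0 and 24.5 in WT HPC and 38.7 and 33.2 in GATA2-/- HPC. HPCs kept 27.9 to 51.2% of the mean HE level. NOTCH4, the receptor of endothelial cells, was at 3.50 and 2.80 in hESCs, 44.4 and 54.2 in WT HE, 33.0 and 72.0 in GATA2-/- HE, 7.54 and 3.10 in WT HPC and 5.67 and 6.18 in GATA2-/- HPC. Its HPC libraries held 6.29 to 15.3% of the HE mean, a smaller share than in any library for NOTCH1, and its lowest WT HPC library fell within the hESC range.

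The targets behaved in 3 ways. HEY1, a repressor downstream of Notch in arteries, was at 0.71 and 0.26 TPM in hESCs, 63.6 and 78.6 in WT HE, 54.0 and 85.9 in GATA2-/- HE, 8.41 and 4.97 in WT HPC and 5.53 and 7.65 in GATA2-/- HPC. It therefore had the same order as DLL4, with the HE genotypes overlapping and the HPC libraries far below. HEY2, its close relative, was at 7.70 and 8.06 in hESCs, 13.8 and 12.4 in WT HE, 11.1 and 11.2 in GATA2-/- HE, 15.4 and 6.01 in WT HPC and 14.1 and 7.93 in GATA2-/- HPC. HEY2 stayed between 6.01 and 15.4 in all 10 libraries, and its HPC libraries spanned both HE groups. HES1, a repressor that also answers to other signals, was at 9.64 and 9.11 in hESCs, 96.9 and 153 in WT HE, 74.5 and 98.1 in GATA2-/- HE, 219 and 103 in WT HPC and 103 and 77.3 in GATA2-/- HPC. HES1 was highest in a WT HPC library and overlapped between HE and HPC in both genotypes.

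The step from hESC to HE could be compared in the GATA2-/- line only. Of the 10 genes, 8 rose and none fell at an adjusted p below 0.05 (limma on log2(TPM + 1), the scale of all differences below, which understates changes of low genes). Over all 21543 tested entries, 13.9% rose and 16.1% fell. The log2 difference, HE minus hESC, was 6.49 ± 0.55 (SE) for SOX7, 5.56 ± 0.34 for HEY1 and 5.20 ± 0.49 for DLL4. With a pseudocount of 0.1 in place of 1 these were 7.81, 6.98 and 7.36. SOX17 and SOX18 passed as well (adjusted p = 4.2e-05 and 6.49e-06), and no fold is given for them because both hESC libraries are listed at 0. NOTCH4 rose by 3.59 ± 0.43, HES1 by 3.06 ± 0.36 and NOTCH1 by 2.33 ± 0.27. The values that did not pass were 0.98 ± 0.36 for JAG1 (adjusted p = 0.0719) and 0.45 ± 0.41 for HEY2 (adjusted p = 0.461). For both genes each HE library was above each hESC library, and the share of all entries in that order was not counted. JAG1 passed when the first or the second GATA2-/- HPC library was left out (adjusted p = 0.0299 and 0.0283), which changes the shared estimate of the spread and not the difference.

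From HE to HPC, 8 of the 10 genes fell in WT cells, where 6.59% of all entries fell and 3.32% rose. SOX17 fell by 4.31 ± 0.42 on the log2 scale, SOX7 by 4.03 ± 0.55 and SOX18 by 2.16 ± 0.34. DLL4 fell by 3.50 ± 0.49, HEY1 by 3.26 ± 0.34 and NOTCH4 by 3.08 ± 0.43, with adjusted p-values of 0.00279, 0.000808 and 0.00279. JAG1 and NOTCH1 changed less, falling by 1.92 ± 0.36 and 1.37 ± 0.27 (adjusted p = 0.0111 and 0.0131). In all 8 each HPC library was below each HE library, and the share of all entries in this order was not counted. HEY2 differed by -0.39 ± 0.41 (95% confidence interval -1.32 to 0.54, adjusted p = 0.645) and HES1 by 0.30 ± 0.36 (-0.50 to 1.11, adjusted p = 0.69). The median difference of the 10 genes was -2.62, and that of all tested entries -0.014.

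In GATA2-/- cells the genes that fell from HE to HPC were the same 8, against 7.24% of all entries that fell and 5.5% that rose. SOX17 fell by 4.60 ± 0.42, SOX7 by 2.76 ± 0.55 and SOX18 by 2.75 ± 0.34. With a pseudocount of 0.1 the SOX17 difference was -6.60, and in WT cells it was -5.996. DLL4 fell by 3.23 ± 0.49, HEY1 by 3.20 ± 0.34, NOTCH4 by 2.85 ± 0.43, JAG1 by 1.42 ± 0.36 and NOTCH1 by 1.25 ± 0.27. HES1 differed by 0.058 ± 0.36 and HEY2 by -0.065 ± 0.41, with confidence intervals of -0.75 to 0.87 and -0.99 to 0.86. The median of the 10 genes was -2.75, against 0.027 for all tested entries.

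**Figure D2:**
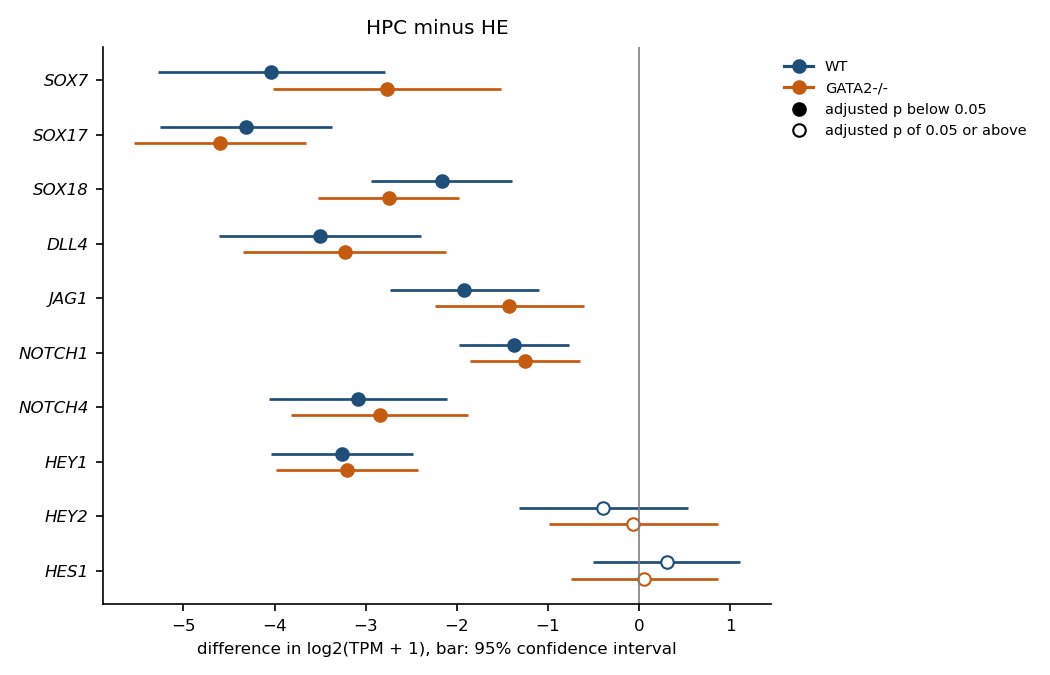
Difference in log2(TPM + 1) between HPC and HE on the x axis for each gene, in WT (blue) and GATA2-/- (orange) cells; bars are 95% confidence intervals and filled points passed an adjusted p of 0.05. The same 8 genes lie below 0 in both genotypes, from -1.25 to -4.60, and HEY2 and HES1 have intervals that span 0.

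Some of these calls depended on which libraries were fitted. With the 4 libraries of either comparison alone, 8 of the 10 genes had an unadjusted p below 0.05 and 0 passed the adjusted threshold. Of all 21543 entries, 4423 in WT and 5040 in GATA2-/- cells had an unadjusted p below 0.05 in that setting, and 0 passed. In WT cells JAG1 and NOTCH1 no longer passed without the first WT HE library (adjusted p = 0.0685 and 0.0887), without the second (0.0796 and 0.0703) or without the second WT HPC library (0.0814 and 0.052), and SOX7 ran from -3.05 without the second WT HPC library to -5.02 without the first. In GATA2-/- cells 5 of the 10 genes passed without either GATA2-/- HE library or without the second GATA2-/- HPC library, as SOX7, JAG1 and NOTCH1 dropped out in each case, with SOX7 at -2.45 to -2.96 and JAG1 at -0.92 to -1.62. Without the first GATA2-/- HPC library, 7 genes passed and NOTCH1 did not (adjusted p = 0.0556). Leaving out either hESC or either WT HE library also left 7, without JAG1 (adjusted p = 0.0596 to 0.0746).

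Other endothelial genes fell between the same libraries. All 15 endothelial markers of the list passed in both genotypes with a lower level in HPC. Their log2 differences ran from -3.66 to -1.34 in WT (median -2.72) and from -3.46 to -1.30 in GATA2-/- cells (median -2.36). In both genotypes DLL4, HEY1, NOTCH4, SOX18 and JAG1 lay within these ranges and SOX17 below them. SOX7 lay below in WT and within in GATA2-/- cells. The summed level of the 15 markers in HPC, weighted to the highest of them, was 20.2 to 28.5% of the HE mean. Set beside that share, the HPC libraries held 0 to 3.40% of the HE mean for SOX17, 2.29 to 17.6% for SOX7, 4.43 to 10.5% for DLL4, 6.99 to 11.8% for HEY1 and 10.7 to 28.5% for SOX18. JAG1 (19.0 to 50.1%) and NOTCH1 were around or above it, HEY2 was at 46.0 to 126% and HES1 at 82.8 to 175%. In sorted bulk RNA, fewer cells of a type and less RNA per cell cannot be told apart. Erythroid genes were at 5625 to 16856 summed TPM in HPC and 47.3 to 209 in HE, and their part in these shares was not tested.

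**Figure D3:**
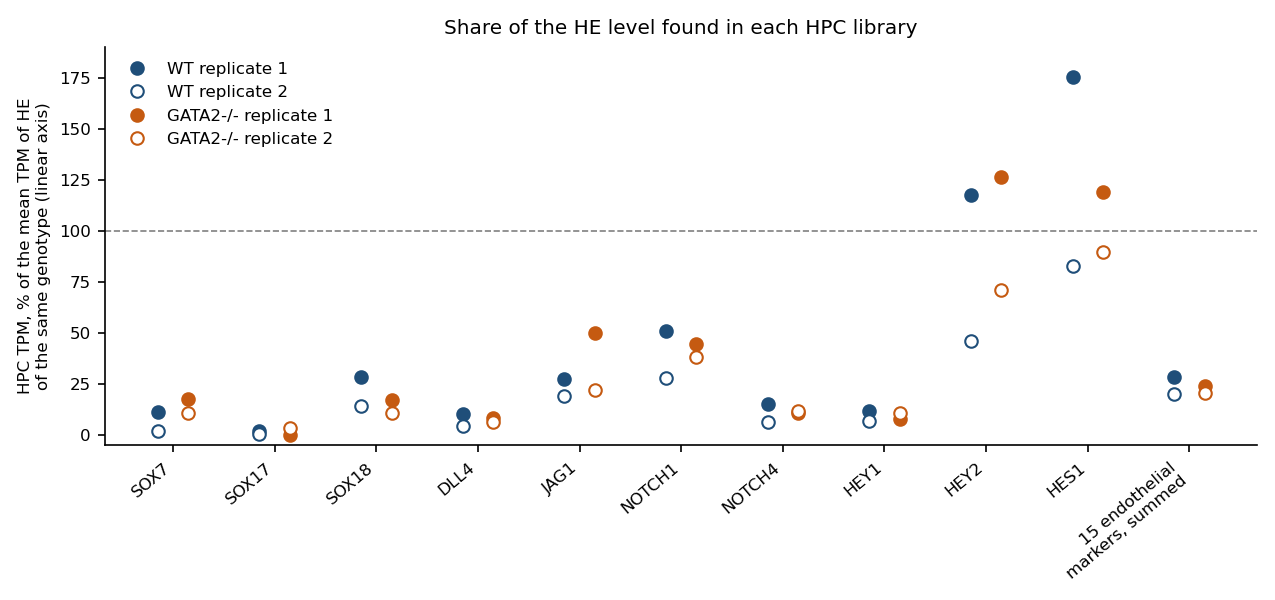
TPM of each HPC library as a percent of the mean TPM of the HE libraries of the same genotype (y axis, linear) for the 10 genes and for the sum of 15 endothelial markers; blue is WT, orange GATA2-/-, filled points replicate 1 and open points replicate 2, and the dashed line marks the HE mean. SOX7, SOX17, DLL4, NOTCH4 and HEY1 lie below the endothelial sum in each HPC library, and HEY2 and HES1 lie above it. The single markers of the sum are not drawn.

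Compared with hESCs, GATA2-/- HPCs were still higher in 6 of the 10 genes, while 14.2% of all entries rose and 16.4% fell. SOX18, listed at 0 in hESCs, passed with an adjusted p of 0.000155. SOX7 rose by 3.73 ± 0.55, HES1 by 3.12 ± 0.36, HEY1 by 2.36 ± 0.34, DLL4 by 1.97 ± 0.49 and NOTCH1 by 1.09 ± 0.27. The differences that did not pass were 0.74 for NOTCH4, 0.39 for HEY2 and -0.45 for JAG1, and SOX17 did not pass either (adjusted p = 0.352). DLL4 and NOTCH1 lost the call without the first hESC library (adjusted p = 0.0895 and 0.112), without the second (0.102 and 0.057) or without the first GATA2-/- HPC library (0.0795 and 0.0794), and DLL4 also without the second (0.0505). This comparison shares its HPC libraries with that of HPC and HE, and its hESC libraries with that of HE and hESC.

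The comparison of genotypes asked whether these transcripts differ without GATA2. In HE, 0 of 10 genes passed and 0 had an unadjusted p below 0.05. Of all 21543 entries, 0.0186% were called and 1045 had an unadjusted p below 0.05. The log2 difference, GATA2-/- minus WT, was 0.71 ± 0.34 for SOX18 (95% confidence interval -0.067 to 1.48), 0.45 ± 0.42 for SOX17 (-0.50 to 1.39) and 0.14 ± 0.55 for SOX7 (-1.11 to 1.39). SOX17 and SOX18 were the genes whose GATA2-/- libraries were both above both WT libraries, which was so for 13.8% of all entries, and HEY2 the one with both below, which was so for 16.5%. DLL4 differed by -0.29 ± 0.49 (-1.40 to 0.82), JAG1 by -0.13 ± 0.36 (-0.95 to 0.69), NOTCH1 by -0.020 ± 0.27 (-0.62 to 0.58) and NOTCH4 by -0.0061 ± 0.43 (-0.98 to 0.97). HEY1 differed by -0.053 ± 0.34 (-0.83 to 0.73), HEY2 by -0.21 ± 0.41 (-1.14 to 0.72) and HES1 by -0.50 ± 0.36 (-1.31 to 0.30). The interval of NOTCH1, the narrowest, still allows a difference of 0.62 on the log2 scale, and those of SOX7, SOX17, SOX18, DLL4, HEY2 and HES1 one of more than 1.

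Marker levels moved between the same HE libraries. Summed endothelial markers were at 6125 to 6507 TPM in WT HE and 7149 to 7658 in GATA2-/- HE. By gene, 12 of 15 were above 0 in their log2 difference, against 9788 of all 21543 entries. Of the 15, 0 were called, where 0.0186% of all entries were. Summed blood markers were at 619 to 682 in WT HE and 403 to 523 in GATA2-/- HE, and erythroid markers at 133 to 209 and 47.3 to 72.0. CD34, by which the cells were sorted, was at 641 and 605 in WT HE and 1059.6 and 925 in GATA2-/- HE. The part of these in the higher SOX17 and SOX18 levels was not tested.

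In HPCs, 0 of 10 genes passed between the genotypes, and 0.0603% of all entries were called. At an unadjusted p below 0.05 there was 1 of the 10 genes, against 1925 of all 21543 entries. That gene was SOX7, at 1.41 ± 0.55 (95% confidence interval 0.16 to 2.66, unadjusted p = 0.0308 and adjusted p = 0.489 in limma), with both GATA2-/- libraries above both WT libraries, as for 19.7% of all entries. The SOX7 difference was 2.39 without the first WT HPC library and 0.43 without the second, and its unadjusted p was no longer below 0.05 without the second WT HPC, the first GATA2-/- HPC or either hESC library, or with only the 4 HPC libraries. HES1 lay the other way, at -0.75 ± 0.36 (-1.56 to 0.057, adjusted p = 0.588), with both GATA2-/- libraries below both WT libraries, though the nearest pair was at 103.41 and 102.59 TPM, and this order held for 13% of all entries. Its difference was -0.21 without the first WT HPC library and -1.29 without the second. The other 8 overlapped, with differences from -0.020 for DLL4 to 0.37 for JAG1. Mitochondrial transcripts took 14.8 to 15.1% of TPM in the GATA2-/- HPC libraries and 8.66 to 9.61% in the WT ones. Summed blood markers were at 2001 to 2368 TPM in GATA2-/- and 2605 to 2780 in WT HPCs, which did not overlap. Summed endothelial markers were at 1535 to 1768 and 1278 to 1798 TPM and summed arterial markers at 115 to 152 and 123 to 158, which overlapped. By gene, 11 of 15 endothelial and 6 of 9 arterial markers were above 0 in their log2 difference, against 11796 of all 21543 entries. Their medians were 0.33 and 0.58 against 0.054 for all entries, and 0 were called. VWF was at 0.85 (adjusted p = 0.317 in limma) and CD34, used in the sort, at 0.56 (adjusted p = 0.502). The part of these in the SOX7 and HES1 values was not tested. An exact permutation test of 2 libraries against 2 cannot give a two-sided p below 0.333, so none was used for single genes.

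**Figure D4:**
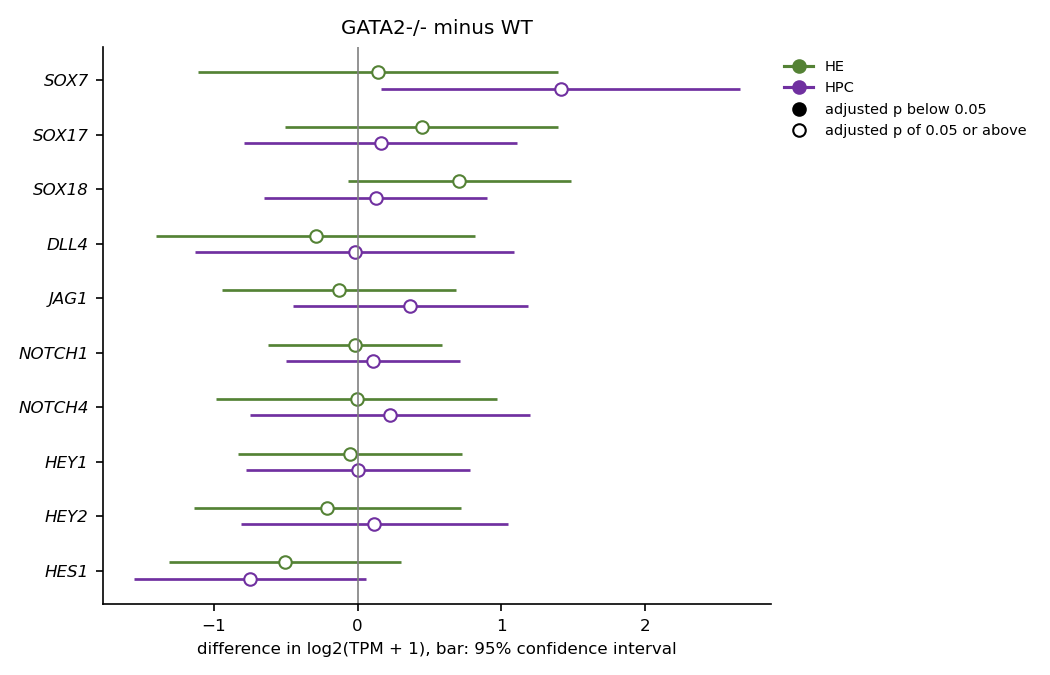
Difference in log2(TPM + 1) between GATA2-/- and WT cells on the x axis for each gene, in HE (green) and HPC (purple); bars are 95% confidence intervals, and open points did not pass an adjusted p of 0.05. All 20 points are open, and the interval of SOX7 in HPC, 0.16 to 2.66, is the one that does not reach 0.

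Whether the genotype effect differed between the stages was tested by its own term. Of the 10 genes 0 passed, 0 had an unadjusted p below 0.05, and 0% of all entries were called, with 1281 entries at an unadjusted p below 0.05. The differences (the effect in HPC minus that in HE) ran from -0.58 ± 0.48 for SOX18 to 1.27 ± 0.78 for SOX7 (95% confidence interval -0.49 to 3.04, adjusted p = 0.883 in limma). Without the first WT HPC library these ends were -0.15 and 2.25, and without the second -1.02 and 0.29.

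Within HPCs the libraries whose headers share their last 4 digits were the second of each genotype. The second library was below the first in both genotypes for SOX7, SOX18, DLL4, JAG1, NOTCH1, HEY2 and HES1, which is 70% of the 10, and above it in both for 0 genes. Over all entries the shares were 36.3% and 14.1%, and among the 15 endothelial markers 10 were lower and 0 higher. Summed erythroid markers went the other way, at 5625 and 15080 TPM in the first and second WT HPC library and 8588 and 16856 in the GATA2-/- ones. In HE the second library was lower in both genotypes for SOX7, SOX17, SOX18 and NOTCH1 and higher in both for DLL4, NOTCH4, HEY1 and HES1, against 34.9% and 17.6% of all entries. The part of erythroid content in these shifts was not tested.

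The remaining ligands and receptors formed a list of 7 genes, of which 1 rose and 1 fell from HE to HPC in each genotype. Of all entries 3.32% rose and 6.59% fell in WT cells, and 5.5% and 7.24% did in GATA2-/- cells. DLK1, an atypical ligand that lacks the domain for activating Notch, rose from HE to HPC by 2.37 ± 0.38 in WT and 3.84 ± 0.38 in GATA2-/- cells, from 43.0 and 60.5 TPM to 202 and 356 in WT and from 54.3 and 51.1 to 579.8 and 1022 in GATA2-/- cells. JAG2 fell by 2.75 in WT and 2.29 in GATA2-/- cells and was called in both. The other 5 genes did not pass in either genotype. Among them NOTCH2 was at 4.07 to 9.39 TPM in HE and 8.73 to 16.3 in HPC, NOTCH3 at 13.1 to 23.7 and 7.67 to 18.5, and DLL1 at 2.46 to 4.0 and 0.24 to 0.94. From hESC to HE, DLK1 (4.48) and JAG2 (3.84) rose, and DLL3 (-2.26), NOTCH3 (-1.71) and NOTCH2 (-1.67) fell. Of all entries 13.9% rose and 16.1% fell at that step. Between the genotypes 0 of 7 were called at either stage, where 0.0186% (HE) and 0.0603% (HPC) of all entries were. At an unadjusted p below 0.05 there were 0 in HE and 1 in HPC, against 1045 and 1925 of all 21543 entries. The 1 in HPC was DLK1 at 1.52 with an adjusted p of 0.277 in limma.

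Of 26 genes for receptor processing and ligand handling, 4 fell and 1 rose from HE to HPC in WT cells, and 5 fell and 1 rose in GATA2-/- cells. Of all entries 6.59% fell and 3.32% rose in WT cells and 7.24% and 5.5% in GATA2-/- cells, so that the 1 riser is near the background in each. LFNG, the Fringe that adds sugars to Notch and alters which ligand it answers to, fell by 3.09 in WT and 3.28 in GATA2-/- cells, from 85.5 to 117 TPM in the 4 HE libraries to 6.87 to 13.3 in the 4 HPC libraries. NEURL1B, a ligase that acts on ligands, fell by 2.10 and 2.70, and DTX4, a Deltex ligase, by 1.83 and 1.61. NUMB, which opposes Notch, fell in WT cells by 0.93, DTX1 in GATA2-/- cells by 1.57 and APH1A of gamma-secretase in GATA2-/- cells by 0.66. RFNG, another Fringe, rose by 0.76 in WT and 0.70 in GATA2-/- cells. MFNG, the third Fringe, was at 37.6 to 53.6 TPM in HE and 21.7 to 35.8 in HPC and did not pass. From hESC to HE, 7 rose and 3 fell, where 13.9% and 16.1% of all entries did, with MFNG (3.08), LFNG (2.60), NEURL1B (2.40) and FURIN (2.25) changing most.

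Of 21 genes of the nuclear complex, 2 fell and 0 rose from HE to HPC in WT cells and 2 fell and 2 rose in GATA2-/- cells, which is near the shares of all entries (6.59% and 3.32%, and 7.24% and 5.5%). TLE2 fell by 2.46 and MAML2, a coactivator, by 2.21 in WT cells. In GATA2-/- cells TLE1 and MAML2 fell by 1.62 and 1.47, and CREBBP and SPEN rose by 0.96 and 0.85. RBPJ, the DNA-binding factor of the pathway, was at 93.1 and 75.6 TPM in hESCs, 26.5 to 39.9 in HE and 25.9 to 46.5 in HPC, and it fell from hESC to HE by 1.26. Among 10 other Notch targets that could be tested, 1 fell in WT cells, and 3 fell and 1 rose in GATA2-/- cells. Differences above 0 were found for 6 of the 10 in WT (median 0.28) and 5 of the 10 in GATA2-/- cells (median 0.055). The 1 that fell in WT and the 1 that rose in GATA2-/- cells are near the shares of all entries (6.59% and 5.5%), and 7.24% of all entries fell in GATA2-/- cells. GATA3 fell from HE to HPC by 2.40 in WT and 1.73 in GATA2-/- cells, CCND1 by 2.11 and NRARP by 1.97 in GATA2-/- cells, where MYC rose by 1.49. Between the genotypes, 7 of the 10 other targets were above 0 in HE (median 0.063) and 3 of the 10 in HPC (median -0.47). The medians of all entries were -0.0070 and 0.054. At either stage 0 of the 10 were called, where 0.0186% and 0.0603% of all entries were. HES5 and HES7 were too low to test, at no more than 2.26 and 0.54 TPM.

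**Figure D5:**
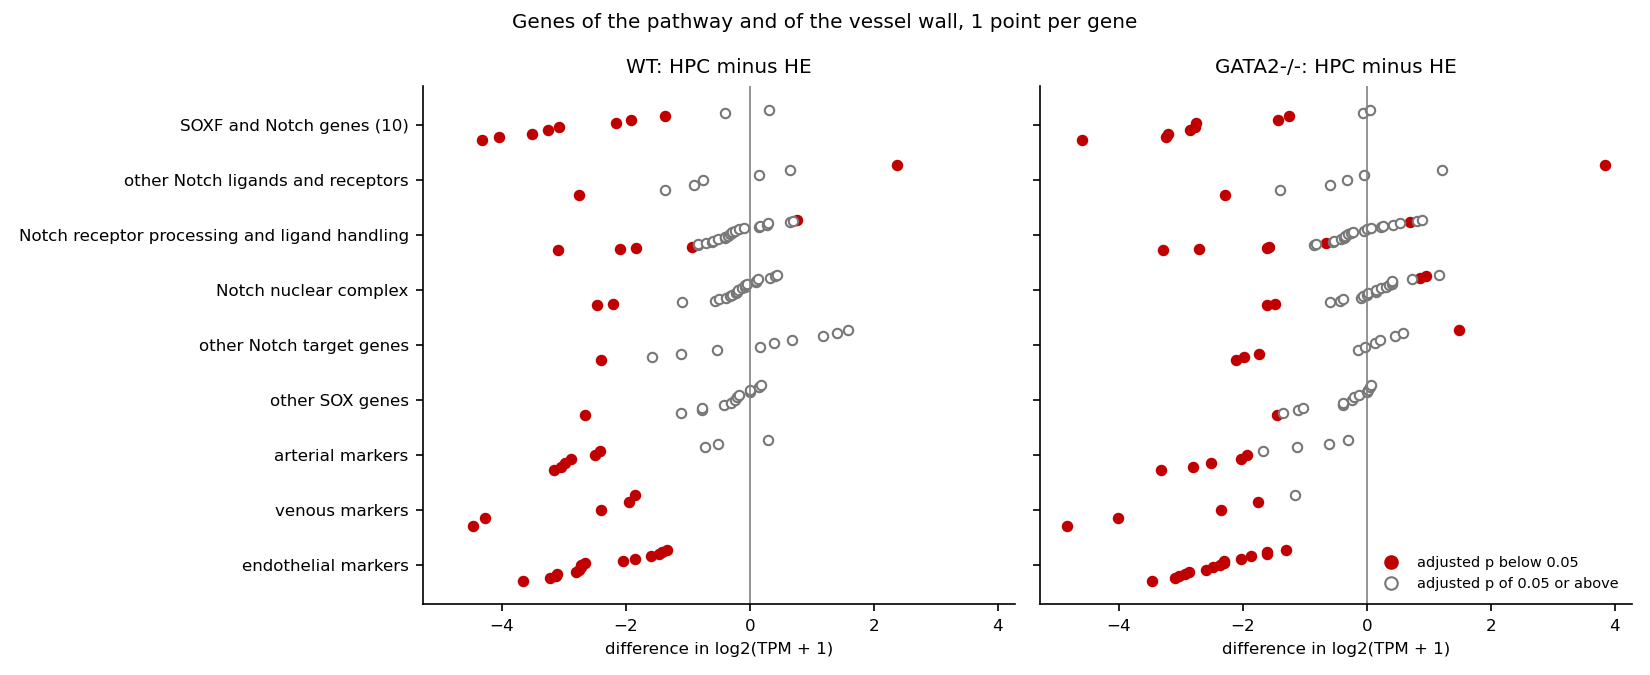
Difference in log2(TPM + 1) between HPC and HE (x axis) for every tested gene of each list (y axis), 1 point per gene, in WT (left) and GATA2-/- (right) cells; red points passed an adjusted p of 0.05. The 15 endothelial markers lie below 0 in both panels, whereas the genes of receptor processing and of the nuclear complex lie on both sides of 0.

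Arterial and venous markers were followed as well. Of 9 tested arterial markers, 6 fell from HE to HPC in WT and 5 in GATA2-/- cells, led by ACVRL1 (-3.16 and -3.31), UNC5B (-3.04 and -2.80), NRP1 (-2.97 and -2.51) and EFNB2 (-2.88 and -2.03). The connexins GJA4 and GJA5, which mark arteries, did not pass in either genotype, and GJA4 was at 57.2 to 145 TPM in HE and 36.6 to 65.8 in HPC. Venous markers fell as well, 5 of 5 in WT and 4 of 5 in GATA2-/- cells, with APLNR (-4.47 and -4.83) and NR2F2, the venous factor that represses Notch genes (-4.26 and -4.02), changing most. Both kinds of marker were present in the same HE libraries, NR2F2 at 28.9 to 44.3 TPM and EFNB2 at 32.1 to 61.3. Among 13 other SOX genes, 1 fell from HE to HPC in each genotype, near the shares of all entries (6.59% and 7.24%). These were SOX5 in WT cells, to a listed 0 in both HPC libraries from 3.91 and 7.06 TPM, and SOX11 in GATA2-/- cells, by 1.44. From hESC to HE, 2 of the 13 rose and 6 fell, where 13.9% and 16.1% of all entries did. SOX2, the pluripotency factor, fell by 6.73, and SOX3 and SOX21 fell to a listed 0 in both GATA2-/- HE libraries. Of the 4 lymphatic markers, FLT4 fell from HE to HPC by 3.19 and 3.79 and was the 1 called in each genotype. The list did not fall as a whole. Differences above 0 were found for 2 of the 4 in WT (median -0.097) and 3 of the 4 in GATA2-/- cells (median 0.75). PROX1, a known target of SOX18 in lymphatic endothelium, was at 0.26 to 3.63 TPM in all libraries. Over these 8 lists of the pathway and of vessels, 95 genes were tested, and 0 were called between the genotypes in HE or in HPC. Of all entries 0.0186% were called in HE and 0.0603% in HPC, so 0 of 95 is near those shares. At an unadjusted p below 0.05 there were 4 and 10, against 1045 and 1925 of all 21543 entries.

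The genes whose levels ran most like those of each member were taken from 11922 genes by Pearson's r over the 10 libraries, which share their groups and normalization, so r is given as a description. SOX18 ran most like MMRN2 (0.997), SOX7 like PTPRM (0.994) and SOX17 like FZD4 (0.992). DLL4 ran most like HEY1 (0.991) of all genes, while HEY1 was nearest to SSH2 (0.993). NOTCH4 ran most like OIT3 (0.990) and CLEC14A (0.990), NOTCH1 like WASF2 (0.994), JAG1 like ITGAV (0.984) and HES1 like SCCPDH (0.988). HEY2 had the loosest nearest gene, MXD4, at 0.929.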

How the data were processed

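The 10 libraries were TruSeq RNA libraries without strand information, read single end. The deposited values are TPM per gene, made by the authors with Bowtie and RSEM on hg19 after trimming with Trimmomatic; the processing notes also name mm10. TPM is relative to each library's total, carries no counts and was given to 2 decimals, so depth and counting error are unknown.

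Values were taken as log2(TPM + 1), and genes at 1 TPM or more in at least 2 libraries were fitted with limma 3.58.1 (R 4.3.3; lmFit, contrasts, eBayes with a mean trend) in 1 model of 5 groups, whose spread is shared. P-values were two-sided and Benjamini-Hochberg adjusted over all 21543 entries, with a threshold of 0.05. Intervals are 95%. The fit was tested on simulated data. Gene positions come from GENCODE v44lift37. Named are the 10 genes, GATA2, stage markers and, in each list and comparison, up to 4 of the largest called changes; FOXA2 and the other endoderm markers, SPI1, VWF, MFNG, RBPJ, PROX1, GJA4, GJA5, NOTCH2, NOTCH3, DLL1, HES5 and HES7 were added after their values were seen. The 3 most similar genes were ranked per member among those at 5 TPM or more on average. The members and lists were chosen with earlier results of these data known.

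Alternatives were a pseudocount of 0.1, no filter, quantile normalization, no trend, the libraries of a comparison alone, each library left out, and a replicate block.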

Additional observations from a re-analysis of the deposited data

How the results depend on the processing

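The sign of the 30 called differences of the 10 genes held under all 18 alternatives, and 27 of the 40 uncalled ones changed sign in at least 1, which bears on values near 0. The members called between the genotypes stayed at 0 in HE and in HPC under each alternative. With only the libraries of the comparison, members called from HE to HPC went to 0 in WT and in GATA2-/- cells (with 8 at an unadjusted p below 0.05 in each), and calls over all genes to 0 for both genotype comparisons and both HE to HPC comparisons and to 4386 for HPC against hESC. That setting leaves fewer samples to estimate the spread. From HE to HPC it put 4423 of all entries in WT and 5040 in GATA2-/- cells at an unadjusted p below 0.05. A pseudocount of 0.1 widened the differences of genes near 0 in hESCs, with HPC minus hESC at 4.99 for SOX7, 3.84 for DLL4 and 3.61 for HEY1. Without the filter, which adds entries to the adjustment, JAG1 lost its call from HE to HPC in GATA2-/- cells (adjusted p = 0.0584), and with quantile normalization it gained one from hESC to HE (0.0438). Calls over all genes between the genotypes in HE, 4 as reported, were 13 without the filter and 12 without the trend, and in HPC, 13 as reported, were 6 with a pseudocount of 0.1 and 20 without the trend; the cause was not tested.

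The labels do not say that replicate numbers pair the libraries. The correlation of same-numbered deviations over genes was 0.123 between the HE genotypes and 0.055 between the HPC genotypes. With a replicate block over all stages the calls over all genes were 2 in HE and 3 in HPC, also with a block for the shared header digits. A block within each sorted stage, chosen after seeing the data as was that for the header digits, gave 7 in HE, 1 in HPC, and 1196 (WT) and 1778 (GATA2-/-) from HE to HPC, where 2134 and 2745 were reported. In that fit HEY2 turned to 0.070 in WT and 0.40 in GATA2-/- cells, and JAG1 lost its call from HE to HPC in GATA2-/- cells (adjusted p = 0.0821) and gained one from hESC to HE (0.0373), as did HEY2 from hESC to HPC (0.0451).

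Other sign changes of GATA2-/- minus WT in HPC were SOX17 at -0.15 with a pseudocount of 0.1 and, with quantile normalization, SOX18 at -0.0048, HEY1 at -0.13 and HEY2 at -0.020. HEY1 was at -0.081 in the difference of genotype effects with quantile normalization.

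Leaving out 1 library at a time, calls over all genes ran from 0 to 1 for the genotypes in HE, 0 to 14 in HPC, 849 to 2073 from HE to HPC in WT, 1257 to 2685 in GATA2-/- cells, 4075 to 6478 from hESC to HE, 4180 to 6550 from hESC to HPC, and 0 to 5 for the difference of genotype effects. The members called ran from 6 to 8, 5 to 8, 8 to 9 and 4 to 6 in the 4 stage comparisons in the same order. Ranges that included both signs were, for the genotypes in HE, SOX7 -0.053 to 0.34, DLL4 -0.997 to 0.41, NOTCH1 -0.092 to 0.052, NOTCH4 -0.56 to 0.54, JAG1 -0.32 to 0.064, HEY1 -0.38 to 0.28. In HPC they were SOX17 -0.40 to 0.73, SOX18 -0.31 to 0.56, DLL4 -0.50 to 0.46, NOTCH1 -0.32 to 0.53, NOTCH4 -0.30 to 0.76, JAG1 -0.14 to 0.87, HEY1 -0.32 to 0.33, HEY2 -0.50 to 0.73. From HE to HPC they were HEY2 -1.004 to 0.22, HES1 -0.23 to 0.84 in WT and HEY2 -0.44 to 0.31, HES1 -0.14 to 0.26 in GATA2-/- cells, with JAG1 -0.95 to 0.061 from hESC to HPC. For the difference of genotype effects they were SOX17 -0.85 to 0.28, DLL4 -0.43 to 0.98, NOTCH1 -0.30 to 0.55, NOTCH4 -0.32 to 0.78, JAG1 -0.012 to 1.00, HEY1 -0.27 to 0.39, HEY2 -0.28 to 0.94, HES1 -0.78 to 0.29.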
